A study of Mus musculus with 3 samples.

Results

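The 35 genes described here are listed genes of the cell cycle, 13 of S phase, in which DNA is copied, and 22 of G2 and M phase, in which the cell prepares for and carries out division. They were taken by name and not filtered by their values, though with earlier results of these data known. All 35 were found among the 55421 gene identifiers of the files. They were measured by droplet single-cell RNA sequencing (10x Genomics Chromium) in the livers of 3 wild-type mice, 1 per group, whose age is not given in the sources used here. All 3 mice, the control included, had eaten an iron-deficient diet (2 to 6 ppm) over 1 week. The IDD mouse stayed on that diet. The IDD+HTF mouse also received 10 mg of holo-transferrin, the iron-loaded plasma carrier, by tail vein, and the IDD+HID mouse ate chow holding 2% carbonyl iron during 18 h. Cells other than hepatocytes were enriched when the suspensions were mixed, so cell numbers per class do not give the makeup of the liver.

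Filtering left 1311 (IDD), 3203 (IDD+HTF) and 3538 (IDD+HID) cells, with a median of 3639, 4449 and 8596 unique molecular identifiers (UMIs, counts of single RNA molecules) per cell. All values below are given in that order. Each pair of libraries shared 1 cell barcode. Cells were clustered without any of the listed genes, and clusters were named "-like" from marker genes. At least 3 UMIs of the T cell markers (Cd3e, Cd3d, Cd3g, Trac, Trbc2, Lat, Cd5 and Cd28) were found in 80 of 81, 133 of 134 and 261 of 262 T-like cells. Levels are a gene's share of all UMIs of a class, scaled as CPM. A cell was called cycling when it held at least 3 UMIs of the 35 genes. Since deeper cells reach that number more easily, the share is given as the expectation after every cell was thinned to 1000 UMIs, beside the unthinned one. With 1 mouse per group no test across mice was possible. The 95% intervals cover counting error only, and those of thinned shares are approximate because the expected counts are not whole. Intervals of CPM and of CPM ratios take every UMI as independent. They are too narrow where few cells hold most UMIs of a gene or list.

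A dividing cell first loads the MCM helicase onto its DNA and makes nucleotides for copying. Cyclins with the kinase CDK1 then drive entry into mitosis, where spindle motors and checkpoint kinases part the chromosomes and the anaphase-promoting complex marks mitotic proteins for destruction. Most of these genes are transcribed only in cycling cells, S phase genes largely through E2F factors and G2 and M phase genes largely through factors that read the CHR element and CCAAT boxes. In the adult liver few hepatocytes divide, whereas lymphocytes and other immune cells can proliferate in the tissue.

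The promoters of 8 of the members on which the results turn are shown to illustrate these elements. They are the S phase genes Mcm5, Mcm6 and Rrm2, the G2 and M phase genes Mki67, Top2a, Birc5 and Ube2c, and Cenpf, which goes its own way in endothelial cells. Each run is the 160 bases before the RefSeq gene start, read 5′ to 3′ on the gene's strand, from RefSeq on GRCm38.p6. Capitals mark, on either strand, TTTGAA or TTTAAA (the CHR element), CCAAT, and TTTCCCGC, TTTCGCGC, TTTGCCGC or TTTGGCGC (E2F sites). Matches of both strands that overlap run together.
Mcm5 (chr8:75109349-75109508, plus strand): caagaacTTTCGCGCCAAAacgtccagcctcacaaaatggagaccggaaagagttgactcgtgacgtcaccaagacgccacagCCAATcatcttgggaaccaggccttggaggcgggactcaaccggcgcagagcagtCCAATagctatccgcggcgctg
Mcm6 (chr1:128359706-128359865, minus strand): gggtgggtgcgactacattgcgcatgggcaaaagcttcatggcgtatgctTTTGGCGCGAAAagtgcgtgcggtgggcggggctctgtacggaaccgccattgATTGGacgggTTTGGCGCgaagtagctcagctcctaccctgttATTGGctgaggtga
Rrm2 (chr12:24708094-24708253, plus strand): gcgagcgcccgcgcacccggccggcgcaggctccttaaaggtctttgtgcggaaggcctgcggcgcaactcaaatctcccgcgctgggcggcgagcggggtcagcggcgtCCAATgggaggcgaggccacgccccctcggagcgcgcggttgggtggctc
Mki67 (chr7:135716380-135716539, minus strand): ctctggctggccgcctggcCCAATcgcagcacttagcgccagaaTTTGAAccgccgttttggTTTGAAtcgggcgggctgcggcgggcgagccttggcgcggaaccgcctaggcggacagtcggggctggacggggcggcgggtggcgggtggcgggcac
Top2a (chr11:99024190-99024349, minus strand): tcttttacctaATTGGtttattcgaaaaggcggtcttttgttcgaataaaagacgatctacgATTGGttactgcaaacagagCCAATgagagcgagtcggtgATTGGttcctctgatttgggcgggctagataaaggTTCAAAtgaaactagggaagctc
Birc5 (chr11:117849077-117849236, plus strand): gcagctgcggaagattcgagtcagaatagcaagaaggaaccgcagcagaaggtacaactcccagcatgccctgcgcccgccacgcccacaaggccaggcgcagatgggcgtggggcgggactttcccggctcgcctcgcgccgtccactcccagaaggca
Ube2c (chr2:164769769-164769928, plus strand): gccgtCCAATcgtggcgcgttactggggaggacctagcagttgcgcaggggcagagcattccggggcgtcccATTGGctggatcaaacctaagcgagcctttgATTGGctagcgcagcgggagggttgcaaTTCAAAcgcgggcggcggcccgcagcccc
Cenpf (chr1:189688087-189688246, minus strand): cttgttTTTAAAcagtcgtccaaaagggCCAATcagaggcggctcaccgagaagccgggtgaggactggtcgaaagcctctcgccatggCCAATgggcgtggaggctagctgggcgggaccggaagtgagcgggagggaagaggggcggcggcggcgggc
The table of promoters held 28 of the 35 members. Of 17 G2 and M phase members, 10 had a CHR match and 15 a CCAAT match, and of 11 S phase members 2 had a CHR and 7 a CCAAT match. Over all 32851 promoters of this length, 15.87% held a CHR and 25.58% a CCAAT match. An E2F match was found for the S phase members Mcm5, Mcm6 and Hells and for Cdk1, against 1.28% of all promoters. In Top2a and Ube2c the CHR match began 23 and 29 bases before the RefSeq start, with CCAAT matches further upstream. The GENCODE annotation starts Ube2c at 164769898 and Rrm2 at 24708241, inside these windows, so distances hold for the RefSeq start alone, and by the GENCODE start the CHR match of Ube2c lies inside the gene. In Cenpf it began 154 bases before the start, upstream of both CCAAT matches. Birc5 held none of these letters in this window. A match is a description of the sequence, not evidence that a factor binds.

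T-like cells held more RNA of the cell cycle genes, relative to all their RNA, than any other named class in each library, and the level was highest in the IDD control. In IDD and IDD+HTF cluster 15, which got no name, stood at 1609 and 2671 CPM, in IDD+HTF above the T-like class. Together the 35 genes made up 3307 CPM (95% interval 3158 to 3461) of the T-like class in IDD, 794 CPM (730 to 862) in IDD+HTF and 1349 CPM (1298 to 1401) in IDD+HID. In droplets with at most 100 UMIs, which hold free RNA, the same genes made up 114, 189 and 197 CPM. The list was therefore 4.16-fold lower (3.79 to 4.58) in the library from the mouse given holo-transferrin and 2.45-fold lower (2.31 to 2.60) in the one from the mouse fed iron than in IDD. These intervals take every UMI as independent. In IDD 12 cells carried 88.7% of the list UMIs, so they are too narrow.

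The share of cycling T-like cells after thinning was 15.7% (8.56 to 25.5) of 81 cells in IDD, 4.65% (1.76 to 9.71) of 134 in IDD+HTF and 4.45% (2.30 to 7.70) of 262 in IDD+HID. It was 0.296 of the IDD share (0.0939 to 0.831) in IDD+HTF and 0.284 of it (0.117 to 0.683) in IDD+HID, and the intervals of IDD+HTF and IDD+HID overlap almost completely. The median depth of the T-like cells was 6316, 5213 and 6977 UMIs. Without thinning, 45, 52 and 132 cells passed, which is 55.6%, 38.8% and 50.4%, and IDD+HID was then at 0.907 of IDD (0.642 to 1.30). The ratio of IDD+HTF to IDD was 0.546 (0.262 to 1.13) when 2 UMIs sufficed, 0.512 (0.244 to 1.06) after thinning to 2000 UMIs and 0.699 (0.460 to 1.07) without thinning, intervals that reach 1. Of the cells counted without thinning, 19, 24 and 72 held only 3 to 4 UMIs of the list.

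**Figure D1:**
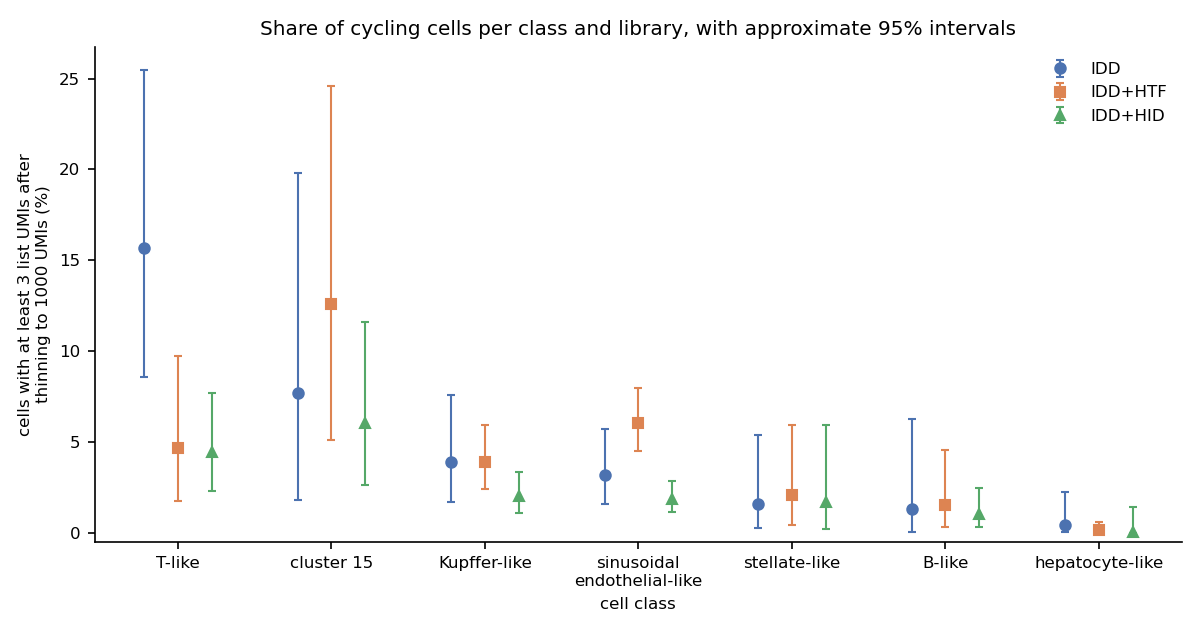
Share of cells with at least 3 UMIs of the 35 genes after thinning to 1000 UMIs (y axis, percent) per cell class (x axis) and library, with 95% intervals for counting error. T-like cells of IDD stand at 15.7%, the other T-like values at 4.65% and 4.45%, and hepatocyte-like cells near 0.

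The members differed in the same direction across the libraries. A fold was computed for members with at least 50 UMIs summed over a pair of libraries. A member can pass this filter through the library where it is high, so the counts of lower members are not independent of it. With no filter on low counts, 35 of 35 members were at least 1.5-fold lower than IDD in IDD+HTF, and 31 of 35 in IDD+HID. Without the filter a member with 0 UMIs in the treated library counts as lower. The unfiltered share of all genes is not given here, so these counts have no background. Under the filter, 20 of the 35 were measured for IDD+HTF against IDD. All 20 were at least 1.5-fold lower in IDD+HTF, where 15.7% of all 3869 measured genes were lower and 10.2% higher by that fold. For IDD+HID against IDD they were 26, of which 24 were lower and 0 higher, against 9.06% of 6393 genes lower and 14.2% higher. The median log2 ratio of the measured members was -2.12 and -1.29, beside -0.11 and 0.04 for all measured genes. Both comparisons share the IDD library, so they are not independent. Between the treated mice, 13 of 23 measured members were higher in IDD+HID than in IDD+HTF and 1 was lower, against 15.2% and 5.7% of 6539 genes. Another scaling of the libraries (TMM) moved the median of all genes to 0.02 and 0.13, and the list's summed level stayed lower in both treated mice.

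The median log2 ratio of the S phase members was -1.47 in IDD+HTF and -1.19 in IDD+HID, and that of the G2 and M phase members -2.65 and -1.38. Among the S phase members, Pcna, the sliding clamp of the DNA polymerases, was at 262, 129 and 125 CPM, with the most UMIs of the S phase members in each library. Mcm3, a subunit of the MCM helicase, was at 117, 28.0 and 47.5 CPM and Mcm5 at 77.1, 16.8 and 31.7 CPM. Mcm4 was at 71.7, 44.7 and 51.6 CPM, and the interval of its ratio of IDD+HTF to IDD (0.62, 0.38 to 1.02) reached 1. Mcm6 was at 69.9, 46.1 and 28.1 CPM, with a ratio of IDD+HTF to IDD of 0.66 (0.40 to 1.08), and was the only measured member at least 1.5-fold lower in IDD+HID than in IDD+HTF. Mcm2 and Mcm7, also helicase subunits, and Hells, a chromatin remodeller of the replication fork, lay between 66.3 and 82.4 CPM in IDD and between 13.98 and 41.9 CPM in the treated mice. Rrm2, the subunit of ribonucleotide reductase made mainly in S phase, was at 118, 12.6 and 40.4 CPM, whereas Rrm1, its steady partner, was at 113, 36.3 and 54.7 CPM. The enzymes of thymidine nucleotide synthesis followed, with Tyms at 93.2, 33.6 and 37.3 CPM and Tk1 at 50.2, 12.6 and 23.5 CPM. In each of these genes IDD was the highest library.

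Of the G2 and M phase members, Mki67, the coat protein of mitotic chromosomes, was at 314, 29.4 and 68.0 CPM (175, 21 and 133 UMIs), 10.7-fold lower in IDD+HTF (6.78 to 17.7) and 4.61-fold lower in IDD+HID (3.66 to 5.83). Top2a, which untangles sister DNA, was at 394, 62.9 and 147 CPM, or 6.27-fold (4.53 to 8.84) and 2.68-fold (2.24 to 3.20) lower. Birc5, the survivin subunit of the chromosomal passenger complex, had the widest measured fold, at 147, 7.0 and 60.3 CPM, from 82, 5 and 118 UMIs. That is 21.0-fold lower in IDD+HTF, with an interval from 8.65 to 66.5 that reflects the 5 UMIs. Ube2c, the ubiquitin-conjugating enzyme of the anaphase-promoting complex, was at 108, 11.2 and 59.8 CPM. Its co-activator Cdc20 was at 21.5, 4.2 and 15.3 CPM. Stmn1, which destabilises microtubules and is also made outside the cycle, gave the most UMIs of all members in IDD, at 416, 85.3 and 160 CPM.

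The cyclins and kinases gave fewer UMIs. Cdk1, the kinase of mitotic entry, was at 50.2, 11.2 and 26.6 CPM, and Ccna2, its S and G2 phase cyclin, at 53.8, 8.4 and 20.4 CPM. The B-type cyclins were closest between IDD and IDD+HID, with Ccnb1 at 16.1, 2.8 and 12.8 CPM and Ccnb2 at 21.5, 7.0 and 19.4 CPM. Ccnb2 was 1.11-fold lower in IDD+HID, with an interval from 0.53 to 2.16. Aurka and Aurkb, the Aurora kinases of the spindle poles and centromeres, had 9 and 12 UMIs in IDD, 2 and 1 in IDD+HTF and 16 and 15 in IDD+HID. Plk1, a mitotic kinase, had 8, 1 and 17 UMIs and the checkpoint gene Bub1b 11, 3 and 17. Bub1, Ccne2 and Kif20a had under 20 UMIs over all libraries (18, 16 and 11), too few to compare. Of the spindle genes, Kif11, the motor that pushes the poles apart, was at 95.0, 12.6 and 24.0 CPM, and Nusap1 at 102, 28.0 and 38.3 CPM. Prc1, which bundles the central spindle, was at 69.9, 15.4 and 23.0 CPM and Tpx2 at 66.3, 16.8 and 23.5 CPM. The kinetochore genes Cenpe and Cenpf were at 48.4, 1.4 and 21.0 CPM and at 75.3, 34.95 and 40.9 CPM.

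**Figure D2:**
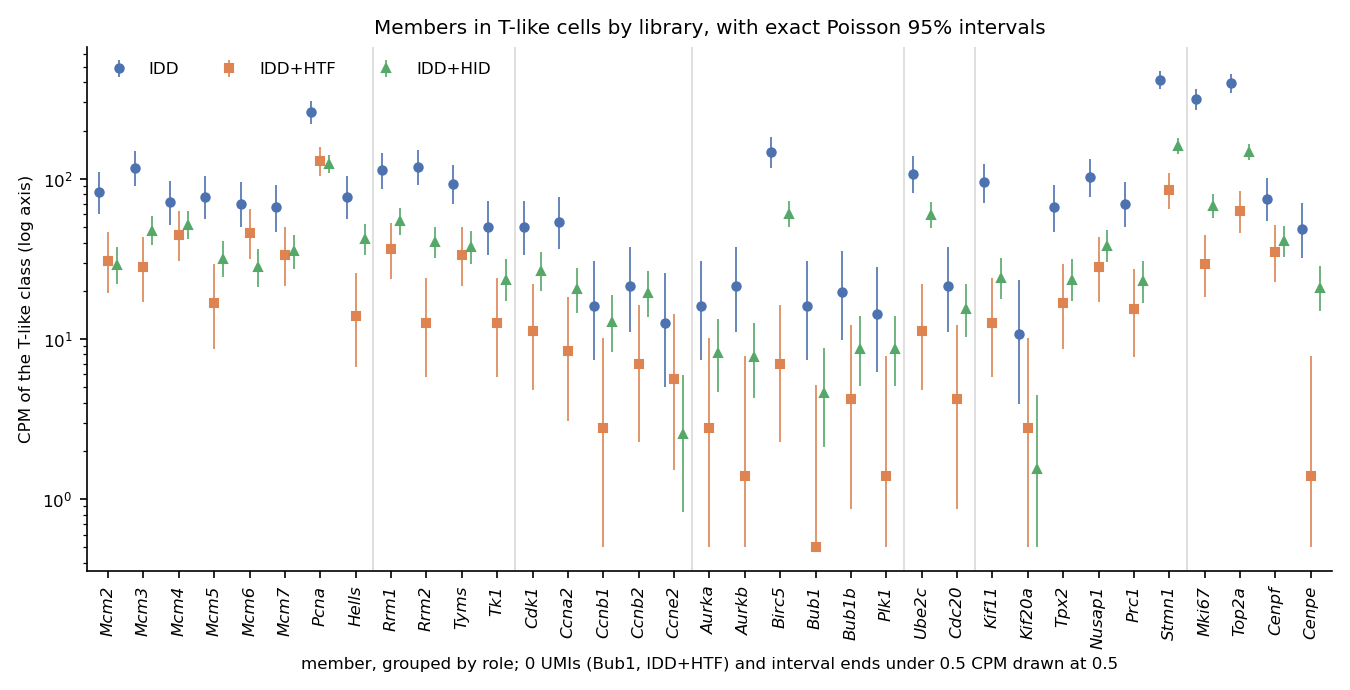
CPM of each of the 35 members in T-like cells (y axis, log scale) by library, with exact Poisson 95% intervals, members grouped by role along the x axis. IDD is highest for every member. IDD+HID lies above IDD+HTF for most G2 and M phase members, as for Birc5 at 60.3 against 7.0 CPM.

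Most of the list's UMIs came from few cells in IDD and IDD+HID. In IDD 12 of 81 T-like cells held at least 20 UMIs of the list (24 to 320, median 129.5) and carried 88.7% of the class's list UMIs. In IDD+HTF 3 of 134 cells did (24 to 133, median 72, 40.3% of the UMIs), and in IDD+HID 12 of 262 (21 to 367, median 100.5, 72.2%). The next cell below held 17, 18 and 14 list UMIs. As shares these are 14.8% (7.90 to 24.4), 2.24% (0.464 to 6.40) and 4.58% (2.39 to 7.86). In all other T-like cells the list stood at 520, 494 and 421 CPM, a ratio to IDD of 0.951 (0.798 to 1.14) in IDD+HTF and 0.810 (0.694 to 0.950) in IDD+HID. Without the cell with the most list UMIs in each library, the class stood at 2866, 617 and 1175 CPM, 4.65-fold and 2.44-fold lower in the treated mice.

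**Figure D3:**
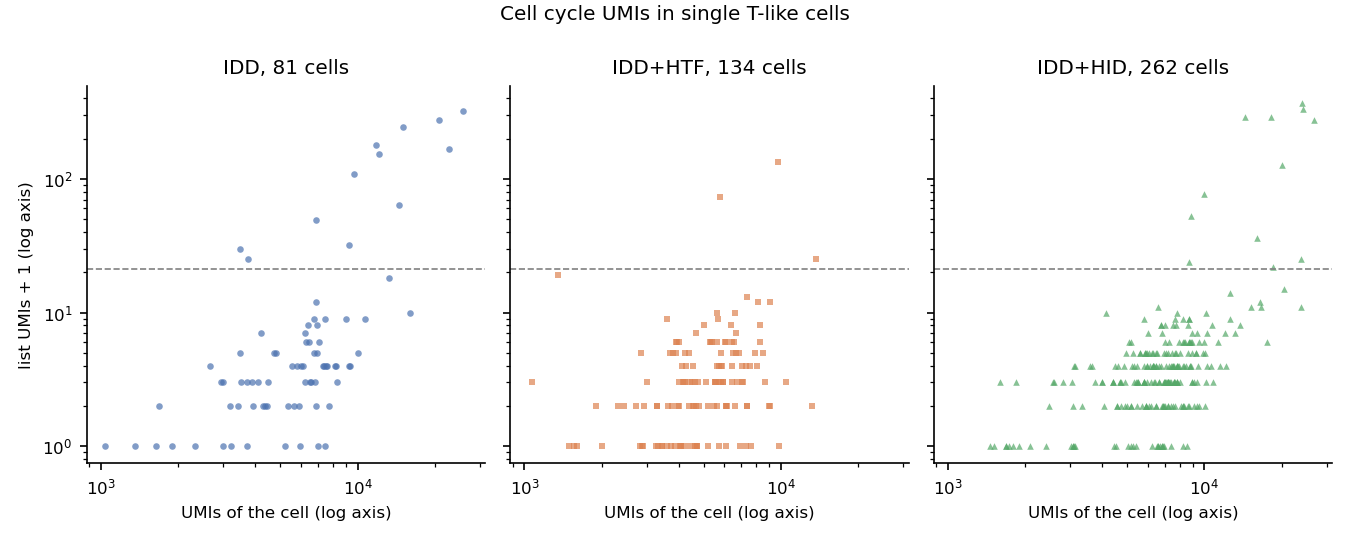
UMIs of the 35 genes plus 1 (y axis, log scale) against all UMIs of the cell (x axis, log scale) for each T-like cell, 1 panel per library, with a dashed line at 20 list UMIs. The line is passed by 12 of 81 cells in IDD, 3 of 134 in IDD+HTF and 12 of 262 in IDD+HID.

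These high cells had more RNA than the rest, with a median of 11997, 9712 and 18411 UMIs against 6017, 5109 and 6871 in the other T-like cells. G2 and M phase UMIs, counted without Stmn1, outnumbered S phase UMIs in 7 of 12, 3 of 3 and 5 of 12 of them. Of the 3 cells of IDD+HTF, 1 with 24 list UMIs held 16 Cenpf UMIs and 0 of the 20 other G2 and M phase members apart from Stmn1. At least 3 of the 20 G2 and M phase members other than Stmn1 and Cenpf were detected together in 14, 6 and 13 T-like cells, or 17.3%, 4.48% and 4.96%. All high cells had at least 3 UMIs of T cell markers. In 0, 1 and 0 of them another lineage had more marker UMIs than the T cell list. The IDD+HID T-like cells without 20 list UMIs held 561 CPM of sinusoidal endothelial markers, and the high ones 70.3 CPM. In the 3 high cells of IDD+HTF markers of sinusoidal endothelial cells stood at 1781 CPM and of stellate cells at 788 CPM, against 49.6 and 43.7 CPM in the other T-like cells of that library. The part of doublets in these cells was not tested.

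By their T cell genes the high cells were mostly of the CD4 kind in IDD and IDD+HID. Cd4 without Cd8a or Cd8b1 was detected in 7 of 12, 0 of 3 and 8 of 12, against 21 of 69, 40 of 131 and 87 of 250 in the other T-like cells. Cd8a or Cd8b1 without Cd4 was detected in 1, 2 and 0 of them, against 9, 26 and 53 of the others. Cxcr6, a chemokine receptor of T cells that reside in the liver, was detected in 10 of 12, 2 of 3 and 9 of 12. In the other T-like cells it was detected in 47 of 69, 74 of 131 and 163 of 250. By level it was lower in the high cells, at 424 against 805, 377 against 506 and 389 against 576 CPM. Foxp3, the master gene of regulatory T cells, was detected in 3 high cells of IDD+HID (11 UMIs) and in none of the other libraries' high cells. The deeper high cells detect more genes, so these shares are not at equal depth.

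At a finer clustering the T-like cells fell into 2 clusters, 1 led by Tcf7 and Lef1, genes of naive and memory cells, and 1 led by Cxcr6. The Cxcr6 cluster held 59 of 81, 78 of 132 and 164 of 262 of these cells. Its thinned cycling share was 17.7% (9.02 to 29.9), 3.94% (0.842 to 11.0) and 3.97% (1.55 to 8.21). In the Tcf7 and Lef1 cluster it was 10.2% (1.49 to 30.6) of 22, 5.84% (1.29 to 15.8) of 54 and 5.25% (1.76 to 11.7) of 98 cells. IDD was the highest in both clusters, with overlapping intervals in the second. Of a list of T cell subset genes, 7 of 19 measured were at least 1.5-fold higher and 0 lower in IDD+HTF than in IDD (10.2% and 15.7% of all genes), and 6 of 21 higher and 1 lower in IDD+HID (14.2% and 9.06%). Of its naive cell genes, Ccr7 was at 75.3, 207 and 168 CPM and S1pr1 at 109, 254 and 221 CPM. The part of the makeup of the T cells in the cycling share was not tested.

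Other cell cycle lists were compared in T-like cells under the same filter, which a gene can pass through the library where it is high. Of all measured genes, 15.7% were lower and 10.2% higher in IDD+HTF than in IDD, and 9.06% and 14.2% in IDD+HID. Of 36 other S phase genes, 7 of 8 measured were at least 1.5-fold lower in IDD+HTF and 0 higher, and 13 of 17 lower and 1 higher in IDD+HID. Of 53 other G2 and M phase genes, 13 of 15 and 19 of 28 were lower and 0 higher. Of 22 replication histone genes, 6 of 6 and 9 of 10 were lower and 0 higher. Pclaf, a partner of PCNA, was at 312, 39.1 and 80.2 CPM, Hmgb2 at 1640, 675 and 772 CPM, and the linker histone gene Hist1h1b at 470, 15.4 and 187 CPM. Of the regulators of G1, 2 of 7 were lower and 0 higher in IDD+HTF, and 3 of 12 lower and 1 higher in IDD+HID. Ccnd2, a cyclin of G1, was at 622, 791 and 584 CPM. Of the inhibitors, 2 of 11 were higher and 3 lower in IDD+HTF, and 2 of 13 and 3 in IDD+HID. Their median log2 ratio was 0.09 and 0.007, beside -0.11 and 0.04 for all measured genes. Among those above IDD in both treated mice, Klf2, a factor of resting T cells, was at 678, 1125 and 1070 CPM. Another was Cdkn1a, the inhibitor p21, at 23.3, 32.2 and 65.4 CPM, with too few UMIs for a fold between IDD+HTF and IDD. Values of the 3 lower inhibitors in each comparison are not listed beside these 2. Of the iron genes, 0 of 6 passed the fold in IDD+HTF, and 4 of 14 were higher and 1 lower in IDD+HID. Tfrc, the transferrin receptor through which dividing cells take up iron, was at 21.5, 25.2 and 32.7 CPM, with a fold of 1.52 in IDD+HID whose interval ran from 0.81 to 3.096.

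Genes in none of the lists that were highest in high over other T-like cells, in IDD and IDD+HID, included genes of division. Tubb5, a tubulin, stood at 2859 against 321 CPM in IDD and at 2632 against 384 CPM in IDD+HID. Ezh2, the Polycomb methyltransferase, stood at 366 against 29.8 CPM and 286 against 25.2 CPM, and Fbxo5, an inhibitor of the anaphase-promoting complex, at 199 against 4.97 CPM and 103 against 1.72 CPM. Some genes of resting cells, from the lists of inhibitors and T cell genes, were lower in the high cells. Btg1, an antiproliferative gene, stood at 520 against 2118 CPM and 623 against 1810 CPM, and Il7r, the interleukin 7 receptor of resting T cells, at 109 against 485 CPM and 117 against 628 CPM. With the cell rule of 3 UMIs without thinning, the 12 leading genes were Nr4a2, Igfbp7, Ezh2, Aqp1, Tubb5, Hes1, Iigp1, Ccl3, Dnase1l3, Cit, Vim and Ncapg2. Dnase1l3, an endothelial marker, was there at 0, 73.7 and 267 CPM in the cycling cells, against 0, 12.4 and 35.2 CPM in the others. The cells were chosen by the 35 genes, so none of this is independent of that choice.

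Above T-like cells in both treated libraries, and below them in IDD, stood the share of cluster 15, a cluster left without a name because its leading genes (S100a4, Xcr1, Ccr2) mix dendritic cells and monocytes. The list stood at 1609, 2671 and 1042 CPM, and the thinned share at 7.67% of 44, 12.6% of 53 and 6.05% of 132 cells, with intervals that overlap between all 3 libraries (1.82 to 19.8, 5.07 to 24.6 and 2.65 to 11.6). The highest library was IDD+HTF, whereas in T-like cells it was IDD. At the finer clustering the cycling cells sat among conventional dendritic-like cells, with thinned shares of 24.1% of 13, 34.3% of 14 and 17.5% of 36 cells, against 0.80% of 31, 4.79% of 39 and 1.76% of 95 monocyte-like cells. Of the 4, 6 and 9 cells with at least 20 list UMIs, Xcr1, the receptor of cross-presenting dendritic cells, was detected in 4, 5 and 7. In the other cells it was detected in 10 of 40, 9 of 47 and 31 of 123. Ccr2, used here as a monocyte marker, was detected in 3, 6 and 8 of the high cells and 26, 32 and 96 of the others. The high cells were deeper, at medians of 23857.5, 26316.5 and 25699 UMIs against 5794.5, 7407 and 11519. These shares are therefore not at equal depth.

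Kupffer-like cells, the resident macrophages, held a small share of cells called cycling in every library. The list stood at 550, 610 and 491 CPM and the thinned share at 3.88% (1.66 to 7.57) of 200, 3.90% (2.42 to 5.93) of 529 and 2.01% (1.09 to 3.36) of 683 cells. By the G2 and M phase members other than Stmn1 and Cenpf alone, it was 1.72% (0.410 to 4.64), 0.714% (0.185 to 1.86) and 0.682% (0.211 to 1.63). The same measure in T-like cells gave 10.0%, 2.21% and 2.29%. IDD+HID was at 0.518 of IDD, with an interval from 0.200 to 1.45. Without thinning the order turned, with 40.5%, 64.8% and 66.6% of cells and IDD+HID at 1.645 of IDD, at median depths of 4598.5, 12466 and 14017 UMIs. Different clusters held the largest part of the class in each library: cluster 4 in IDD, which is shallow and led by Hbb-bs, cluster 3 in IDD+HTF and cluster 19, led by Cxcl2 and Il1b, in IDD+HID. Pcna made up 28.1% of the class's list UMIs, at 144, 163 and 146 CPM. Mki67 was at 13.2, 20.6 and 25.5 CPM, lowest in IDD, and Mcm6 at 23.7, 12.2 and 7.12 CPM, highest in IDD. Of the members measured, 5 of 19 were higher and 3 lower in IDD+HTF (13.4% and 5.71% of 10192 genes), and 3 of 21 higher and 6 lower in IDD+HID (16.5% and 8.41% of 10946 genes). Between the treated mice, 0 of 29 were higher and 9 lower in IDD+HID (6.68% and 7.51% of 12231 genes). Cells with at least 20 list UMIs numbered 6, 27 and 14.

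The sinusoidal endothelium forms the walls of the hepatic capillaries, and among its cells 1 gene carried much of the share. Thinned, it was 3.20% (1.58 to 5.73) of 328, 6.06% (4.48 to 7.98) of 770 and 1.86% (1.16 to 2.83) of 1131 cells. Without thinning it was 23.5%, 53.5% and 67.8%, at median depths of 3403.5, 6171 and 9914 UMIs, and IDD+HID was then above IDD. Cenpf, which codes for a kinetochore protein of G2 and M phase, made up 22.8% of the list UMIs of the class. It stood at 145 CPM (183 UMIs), 331 CPM (1762 UMIs) and 49.9 CPM (560 UMIs), which is 2.28-fold higher in IDD+HTF than in IDD (1.96 to 2.67) and 0.34-fold in IDD+HID (0.29 to 0.41). Without Cenpf the thinned shares were 0.81%, 0.93% and 1.49%, and their order changed. Their intervals overlap (0.147 to 2.50, 0.381 to 1.89 and 0.871 to 2.38).

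In each library the Cenpf of these cells came largely without the other G2 and M phase members. At least 3 Cenpf UMIs were found in 22, 112 and 62 cells, of which only 1, 11 and 9 had a UMI of Mki67 or Top2a. The other G2 and M phase members (without Stmn1) stood at 87.0 and 55.3 CPM in the Cenpf cells of IDD and IDD+HTF, against 78.5 and 55.003 CPM in the remaining cells, and at 983 against 63.0 CPM in IDD+HID. The median endothelial Cenpf cell held 0 of these other members in each library. In IDD+HID the 5 endothelial cells described below, rich in these members, held 81 of the 560 Cenpf UMIs. In T-like cells with at least 3 Cenpf UMIs (6, 3 and 6 cells) the other members stood at 7841, 2634 and 7405 CPM. Of these T-like cells 6, 1 and 5 had a UMI of Mki67 or Top2a, so the value of IDD+HTF rests on few cells. Outside the list, Ckap2l, a spindle gene, was higher in Cenpf cells in each library (104 against 39.3, 134 against 67.7 and 116 against 56.1 CPM). Most of the signal of IDD+HTF lay in cluster 9, led by Cxcl10, Apold1 and Iigp1, at 461 CPM against 148 in cluster 1. Cluster 1 held 274 of the 328 cells of IDD, whereas cluster 9 held 399 of 770 and 647 of 1131 cells of the treated mice. Cenpf was also highest in IDD+HTF in vascular endothelial-like cells (25.6, 208 and 22.8 CPM, in 29, 50 and 86 cells) and in stellate-like cells (67.0, 130 and 67.1 CPM). In Kupffer-like cells it stood at 8.36, 16.2 and 6.27 CPM. The near-empty droplets, which hold free RNA, had 5.04, 21.5 and 5.52 CPM of Cenpf. The part of free RNA in these values was not tested.

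**Figure D4:**
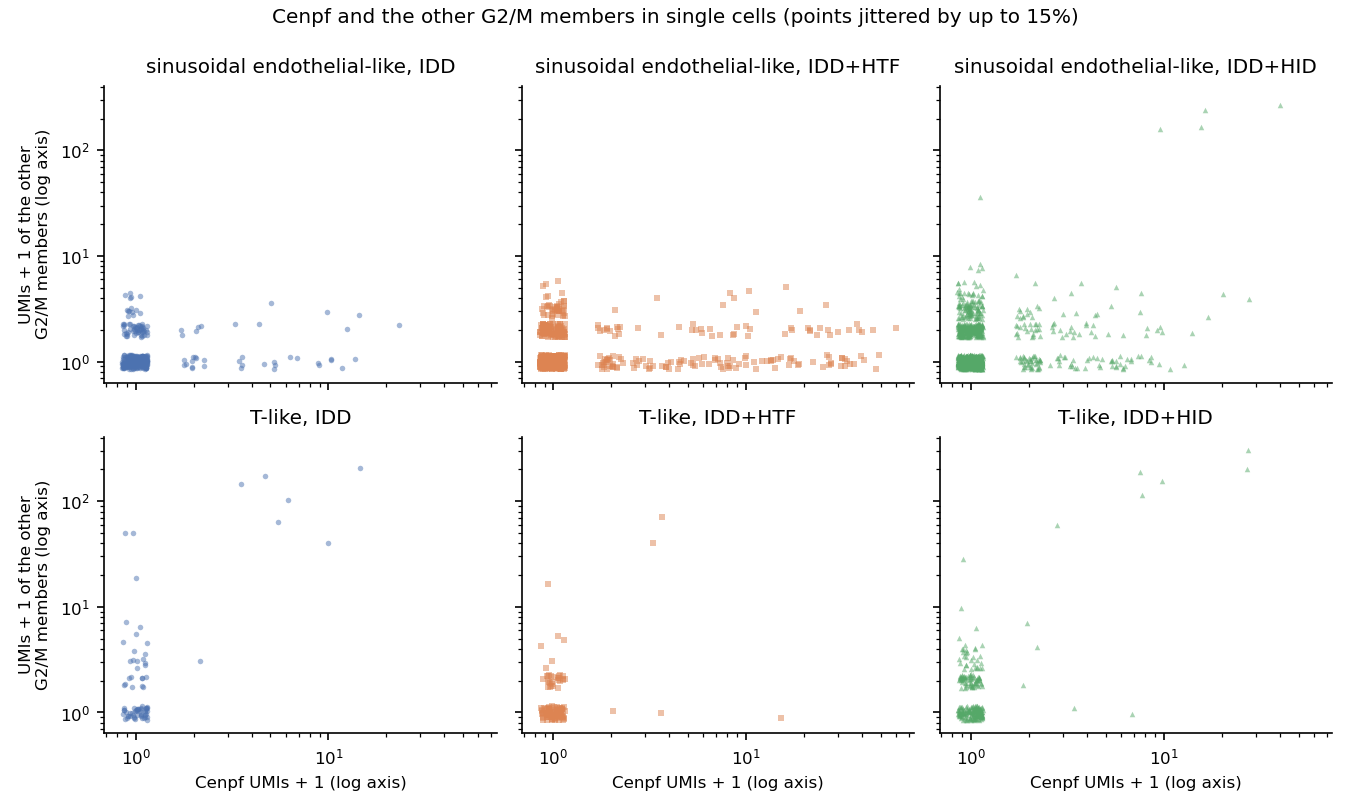
UMIs plus 1 of the 20 G2 and M phase members other than Cenpf and Stmn1 (y axis, log scale) against Cenpf UMIs plus 1 (x axis, log scale) per cell, in sinusoidal endothelial-like (top) and T-like cells (bottom) of each library. Endothelial cells of IDD+HTF reach 54 Cenpf UMIs with at most 5 of the others. Among T-like cells with at least 3 Cenpf UMIs, 6 of 6 in IDD and 5 of 6 in IDD+HID hold at least 3 different other members. In IDD+HTF 1 of 3 does. In IDD+HID 5 endothelial cells hold at least 31 UMIs of the others, and together 81 of Cenpf.

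A small group of endothelial cells of IDD+HID did hold the whole programme. At least 20 UMIs of the 20 G2 and M phase members other than Stmn1 and Cenpf were found in 0 of 328, 0 of 770 and 5 of 1131 cells, and the counts of 0 limit the share to 0.915% and 0.390%. These 5 cells held 31 to 295 such UMIs, the next cell 8, and they were deep, with 15746 to 39081 UMIs. They carried 206 of the 264 Top2a UMIs and 158 of the 196 Mki67 UMIs of the class in IDD+HID. With them, 11 of 23 measured members were at least 1.5-fold higher in IDD+HID than in IDD and 2 were lower, against 14.3% and 19.3% of 12023 genes. Without them it was 5 of 19 higher (Bub1b, Mcm3, Mcm4, Stmn1 and Tk1) and 5 lower (Cenpf, Kif11, Mcm2, Mcm6 and Top2a). Top2a was then at 12.7, 6.58 and 5.23 CPM instead of 12.7, 6.58 and 23.5 CPM. The 5 cells were chosen by their UMIs of these members, so lower values without them, here and below, follow from that choice. The shares of all genes were not recomputed without the 5 cells. For IDD+HTF against IDD 5 of 13 measured members were higher and 2 lower, against 9.78% and 9.77% of 10422 genes. Between the treated mice, 13 of 25 were higher and 2 lower in IDD+HID (5.27% and 11.6% of 12953 genes), and without the 5 cells 4 of 21 and 3. Mcm3 was at 53.1, 90.8 and 87.5 CPM and Pcna at 84.0, 116 and 128 CPM, both lowest in IDD.

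Classes with fewer than 50 cells in a library had wide intervals. NK or ILC1-like cells, the innate lymphocytes, had thinned shares of 2.22% of 18, 2.24% of 40 and 3.28% (0.594 to 9.84) of 81 cells, and in IDD+HID their list level of 659 CPM was the second highest of the named classes. In vascular endothelial-like cells the shares were 0.533% of 29, 4.13% (0.530 to 13.9) of 50 and 0.890% of 86 cells. In cholangiocyte-like cells, which line the bile ducts, they were 0.327% of 6, 1.82% of 9 and 1.32% of 14 cells, although 5 of the 14 cells of IDD+HID held at least 20 list UMIs. Stmn1 made up 35.2% of the list UMIs of that class, and its median depth in IDD+HID was 14367.5 UMIs.

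B-like, stellate-like, hepatocyte-like and neutrophil-like cells had thinned shares of at most 2.05%. In B-like cells the thinned shares were 1.29% of 91, 1.52% of 181 and 1.04% of 461 cells. In IDD+HTF 1 cell with 196 list UMIs held 158 of the class's 201 UMIs of the G2 and M phase members other than Stmn1 and Cenpf, and the list stood at 650 CPM with and 385 CPM without it. Of the measured B-like members, 1 of 3 was higher and 0 lower in IDD+HTF than in IDD (11.1% and 8.36% of genes), 2 of 8 higher and 1 lower in IDD+HID than in IDD (18.8% and 8.58%), and 1 of 11 higher and 3 lower in IDD+HID than in IDD+HTF (14% and 5.93%). In stellate-like cells the shares were 1.60% of 139, 2.05% of 145 and 1.71% of 120 cells, but in 6 of 8 and 3 of 11 stellate-like cells with at least 20 list UMIs in IDD+HTF and IDD+HID another lineage had more marker UMIs. Of the measured stellate-like members, 3 of 4 were higher and 0 lower in IDD+HTF than in IDD (23.5% and 10.7% of genes), 3 of 6 and 0 in IDD+HID than in IDD (30.4% and 16.2%), and 3 of 6 and 1 in IDD+HID than in IDD+HTF (8.8% and 8.45%). In hepatocyte-like cells the list stood at 148, 48.1 and 83.9 CPM, below the level in near-empty droplets in the treated mice, and 1 of 246 cells in IDD carried 55 of the class's 59 UMIs of the G2 and M phase members other than Stmn1 and Cenpf. Only 1, 0 and 1 members could be measured for IDD+HTF over IDD, IDD+HID over IDD and IDD+HID over IDD+HTF, and 1 was lower, in the last. Of all genes 17.5% were higher and 14.1% lower, 64.6% and 12%, and 62.7% and 14.9%, and the median log2 ratio of all genes in IDD+HID over IDD was 0.96 by total and 0.04 by TMM scaling. The thinned shares were 0.41%, 0.13% and 0.01% of 246, 1031 and 260 cells. No neutrophil-like cell of 14, 16 and 33 reached 3 list UMIs, a limit of 21.4%, 18.8% and 9.09%. Neutrophils are mature cells that no longer divide, and their median depth here was 2362.5 to 3057 UMIs.

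Of the 6 classes with at least 50 cells in every library, T-like cells held the highest CPM for 34, 14 and 28 of the 35 members. Cluster 15, with 44 cells in IDD, was above all 6 classes for 6, 28 and 6 members. Its Top2a stood at 171, 325 and 94.1 CPM and its Mki67 at 116, 286 and 79.6 CPM. Among the 6 classes, the member not highest in T-like cells of IDD was Cenpf, which was highest in sinusoidal endothelial-like cells. In IDD+HTF B-like cells were highest for 13 members and Kupffer-like cells for 6. Of all cells with at least 3 of the G2 and M phase members other than Stmn1 and Cenpf, T-like cells were 14 of 38, 6 of 63 and 13 of 122. Kupffer-like cells were 8, 31 and 35 of them, sinusoidal endothelial-like cells 2, 7 and 30, and cluster 15 held 6, 8 and 13.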

How the data were processed

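Droplet libraries of 3 livers were analysed from the deposited matrices of raw UMI counts per gene and barcode, which the authors made with GRCm38 and Seurat 4 named in the submitters' processing notes. For the aligner and counter, no name is given in the sources used here. There were 0 columns of other samples. Kept barcodes had 1000 or more UMIs, 300 or more detected genes, and a mitochondrial share of 20% or less. The doublet caller of scanpy 1.11.5 marked 1.72%, 0.156% and 0.197% of barcodes in IDD, IDD+HTF and IDD+HID; below 0.5% it cannot be taken to have worked, so doublets remain. Cells were clustered (python 3.11.15, numpy 2.4.6, scipy 1.17.1, igraph 0.11.9) without any gene of the lists used here, and clusters named from markers with thresholds (pseudocount 20 CPM, mean log2 of at least 1, lead of 0.5) set after cluster profiles were seen. The members, lists and tests were chosen with earlier results of these data known. Counts were summed per class and library and divided by total UMIs. TMM factors came from edgeR 4.0.16, and no model was fitted. Members with at least 20 UMIs in T-like cells, or 50 in another class, were eligible for values in every library, as were 12 genes of no list by mean log2 (pseudocount 20 CPM, at least 30 UMIs in cycling cells). Scripts were tested on simulated data.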

Additional observations from a re-analysis of the deposited data

How the results depend on the processing

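No paired analysis was possible because each group holds 1 mouse, so the groups share fewer than 2 replicate numbers, and leaving out a replicate leaves no group. Of 208 recomputed values 174 stayed within their counting interval or within 1.5 times the count, and 34 did not. No value here carries a test, and some of the ratios below lie on the other side of 1 from their values in the text. The share of cycling T-like cells was 55.56%, 38.81% and 50.38% without thinning (IDD, IDD+HTF, IDD+HID). It was 22.38%, 12.21% and 10.5% with at least 2 UMIs, and 24.04%, 12.31% and 9.676% thinned to 2000 UMIs. Without thinning the share ratio of IDD+HID over IDD was 0.9069 in T-like, 2.889 in sinusoidal endothelial-like and 1.645 in Kupffer-like cells. The sinusoidal ratio of IDD+HTF over IDD was 0.8633 with S phase members only and 8.306 with at least 20 UMIs and no thinning (2.279 with no thinning alone). That of IDD+HID over IDD was 1.833 without Cenpf and, with no thinning, 1.74 with at least 20 UMIs and 4.35 with at least 3 different G2 and M phase members. For summed CPM, IDD+HTF over IDD was 0.265 in T-like cells (median of ratios). In sinusoidal cells it was 1.565 (TMM), 1.596 (median of ratios) and 1.083 (without Cenpf), in stellate-like 0.793 and in hepatocyte-like 0.2267 (both without Cenpf). IDD+HID over IDD was 0.4345 in T-like and 1.444 in stellate-like cells (TMM). In sinusoidal cells it was 1.322 (TMM), 1.361 (median of ratios) and 1.438 (without Cenpf), and in hepatocyte-like 0.2989 (TMM) and 0.3237 (median of ratios). With no filter on low counts, 35 members were at least 1.5-fold lower in T-like cells of IDD+HTF. Of the other cell cycle lists 2 genes were then higher and 83 lower by that fold in IDD+HTF, and 2 higher and 69 lower in IDD+HID. The unfiltered share of all genes is not given here. At 2-fold, 0 were higher in IDD+HID. The cause was not tested. The settings without Cenpf, with at least 20 UMIs, with at least 3 different G2 and M phase members, and without T-like cells holding more markers of another lineage were chosen after seeing the data. With 1 mouse per group, differences between mice and between treatments cannot be told apart, and depth differs between the libraries.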
